A study of Mus musculus with 6 samples.

Results

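The genes described here are 33 genes of the endoplasmic reticulum (ER) that fold secreted proteins or take part in the unfolded protein response, out of 55421 mouse genes in the count table. They were chosen by gene name, with levels of these same libraries in view, so every difference between the groups below is a description of the members and their direction is no independent evidence. All 33 were found, and all 33 were among the 18838 genes that passed the low-count filter. They fall into 14 chaperones and folding enzymes, 7 genes of ER degradation, 4 stress sensors and transcription factors (the sensors with Xbp1), 6 genes of the ATF4 arm and 2 genes of protein entry into the ER.

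The libraries were made from total RNA of femur bone in which osteocytes, cells buried within mineralised matrix, had been enriched, from wild-type C57BL/6 mice aged 12 weeks. There were 3 control libraries and 3 libraries after phlebotomy, the removal of blood, and the series asks how the osteocyte transcriptome differs after hemorrhage. How much blood was removed, when, and whether each library came from a separate animal are not stated in the labels, and p-values therefore cover only how far these libraries spread, which may be technical. Group membership rests on the column initials, P read as phlebotomy and N, by elimination, as control, and the libraries are named by column number (1, 2 and 4).

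Proteins bound for the membrane or for secretion fold in the ER with the help of chaperones, and those that fail are pulled back to the cytosol and degraded. When unfolded proteins build up, the sensors ATF6, IRE1 (Ern1) and PERK (Eif2ak3) act: ATF6 and spliced XBP1 switch on chaperone and degradation genes, and PERK slows translation while raising ATF4, which drives amino acid and stress genes. Osteoblasts, the precursors of osteocytes, secrete large amounts of collagen and depend on this machinery.

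Promoter sequences are shown first because the arms differ in the short elements through which these factors are known to act. RefSeq windows (GRCm38.p6) from 250 bases before to 50 bases after the start were matched for 28 of 33 members, and both strands were searched. The ER stress element (ERSE, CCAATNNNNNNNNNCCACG), known to be bound by NF-Y and ATF6, was in the windows of 9 of 28 members, against 37 of 27025 genes (0.137%). By arm it was found in 7 of 12 chaperones with a window, 2 of 6 ER degradation genes, 0 of 3 of the sensors with Xbp1 and 0 of 6 genes of the ATF4 arm. The shorter form ERSE-II (ATTGGNCCACG) was in Dnajb11 and Herpud1, against 12 genes of all (0.0444%). The element TGATGNAA, to which ATF4 with C/EBP is known to bind, was in 4 members, Asns, Chac1, Trib3 and Herpud1, against 1219 genes (4.51%), and 3 of the 4 belong to the ATF4 arm. The element TGACGTGG, known for XBP1, was in 0 of 28 members and in 193 genes (0.714%). The elements were picked as those known for these pathways, so these shares are a description and no independent evidence. The counts over all genes include the members themselves. Only exact matches were searched, so an element with a differing letter, or one outside the window, was missed. A match is a run of letters and not a measured binding site.

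The following stretches are printed 5′ to 3′ along the gene, with the element in capitals (CGTGG and ATTGG are CCACG and CCAAT read on the other strand). Canx (minus strand, chr11:50325785-50325833), Creld2 (plus, chr15:88819505-88819553), Pdia6 (plus, chr12:17266476-17266524) and Syvn1 (plus, chr19:6046517-6046565) show the ERSE in 3 chaperone genes and 1 degradation gene. Herpud1 (plus, chr8:94386302-94386402) holds the ATF4 element and ERSE-II. Chac1 (plus, chr2:119351034-119351071) shows the ATF4 element in its own arm. Stretches lying within an annotated exon are not printed.
Canx: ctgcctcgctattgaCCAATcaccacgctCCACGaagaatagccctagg
Creld2: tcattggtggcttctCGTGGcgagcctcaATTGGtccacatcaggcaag
Pdia6: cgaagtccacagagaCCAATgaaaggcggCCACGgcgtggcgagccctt
Syvn1: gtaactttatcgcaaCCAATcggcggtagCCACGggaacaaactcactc
Herpud1: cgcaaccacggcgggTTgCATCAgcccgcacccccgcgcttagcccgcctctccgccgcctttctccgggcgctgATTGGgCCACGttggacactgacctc
Chac1: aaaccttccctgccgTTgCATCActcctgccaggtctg

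Sdf2l1, the member with the largest fold change, has no full match to these elements in its window. Its 250 bases before the start (minus strand, chr16:17132384-17132633) are shown with the ERSE's outer blocks in capitals. Each block occurs 3 times, at other spacings than the 9 bases of the element. How often such short blocks occur in the windows of other genes was not counted, so they are not shown to be particular to Sdf2l1.
Sdf2l1: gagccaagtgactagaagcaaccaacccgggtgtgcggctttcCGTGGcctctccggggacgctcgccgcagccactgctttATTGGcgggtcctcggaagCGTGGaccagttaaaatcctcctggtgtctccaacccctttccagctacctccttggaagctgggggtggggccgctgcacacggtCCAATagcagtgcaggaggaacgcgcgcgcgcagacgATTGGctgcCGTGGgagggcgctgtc

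The libraries held 11219243 to 19015588 gene counts. Levels are CPM, a gene's counts scaled to library size, adjusted by TMM, a method that sets libraries to a common scale, and a fold change is phlebotomy over control on the log2 scale. Over all genes edgeR called 3 of 18838 (0.0159%) at an adjusted p under 0.05. Phlebotomy 2 stood apart from the other phlebotomy libraries: on the first principal component (41.8% of the variance) it lay at -7.80, between the controls (-51.4 to -16.6) and phlebotomy 1 and 4 (54.9 and 40.2). Osteocyte markers were present in every library, with Dmp1 at 11445 to 43051 CPM. The 9 osteocyte markers all had a fold change below 0, with a median of -0.72. Their summed level was 22933 to 48950 CPM over the controls, against 13817 to 24998 CPM after phlebotomy, and these ranges overlapped. Dmp1 alone held most of the sum, with 43051 of 48950 CPM in control 1 and 11445 of 13817 CPM in phlebotomy 1. All phlebotomy libraries were below all controls for 4 of the 9, where 11.2% of all genes were. In bulk RNA, fewer cells of a type and less RNA per cell cannot be told apart. The part of this in the results below was not tested.

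Levels per kilobase of exon, with all annotated exons of a gene merged, set the members in order within the control libraries. The median over members was 35.3 CPM per kb, against 3.16 over all genes tested, and 32 of 33 members were above that median. Hspa5, the chaperone BiP that also holds the sensors inactive, was highest at 713 CPM per kb and took 29.8% of the members' summed CPM. Next came Calr, the lectin chaperone calreticulin, at 308 CPM per kb, and Pdia3, a disulfide isomerase for glycoproteins, at 255 CPM per kb. Atf4 stood at 233 CPM per kb, above the other members of its arm. The medians by arm were 65.3 CPM per kb for chaperones, 32.7 for entry, 27.5 for the ATF4 arm, 12.6 for ER degradation and 11.8 for the sensors with Xbp1. Derl3 was the lowest member at 0.909 CPM per kb, with 6 to 31 counts per library.

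**Figure D1:**
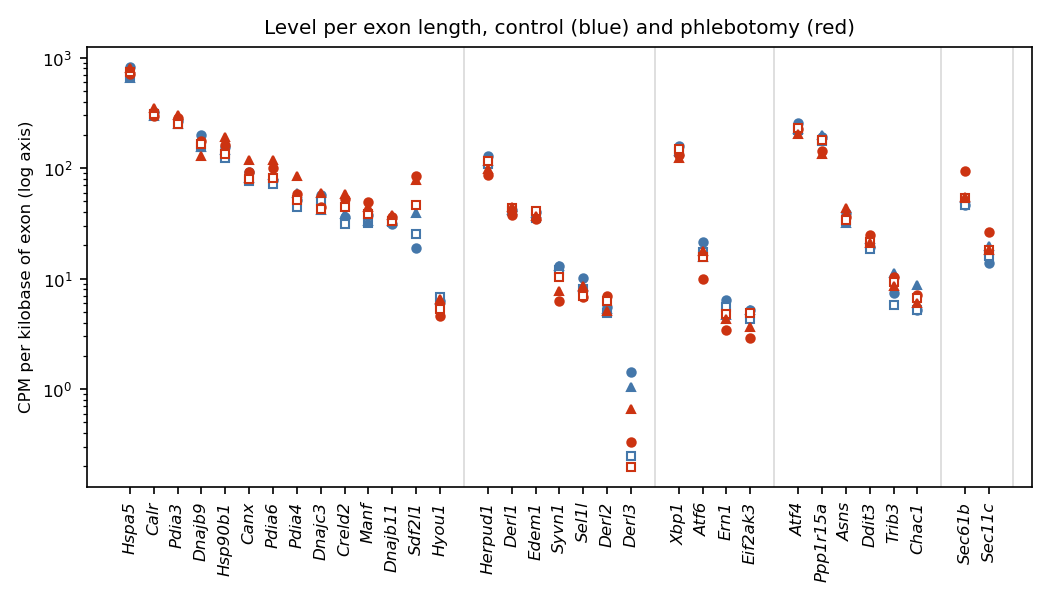
Level of each member as TMM-scaled CPM per kilobase of exon, on a log axis, by arm. Blue points are the 3 control libraries and red points the 3 phlebotomy libraries (circle 1, open square 2, triangle 4). By the mean of the controls, Hspa5 is highest at 713 CPM per kb and Derl3 lowest at 0.909 CPM per kb.

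Between the groups, the chaperones lay mostly higher after phlebotomy and the degradation genes and sensors mostly lower, but edgeR called 0 of 33 members, and the lowest adjusted p was 0.139 (Sdf2l1). At an unadjusted p under 0.05, 4 members were higher (Sdf2l1, Creld2, Manf and Sec61b), where 7.01% of all genes were, and 2 were lower (Syvn1 and Ern1), where 9.42% of all genes were. DESeq2 called 1 member, Sdf2l1, among 284 genes (1.51%), and limma-voom called 0. With no low-count filter edgeR also called Sdf2l1 alone (1.24% of all genes tested). All 3 phlebotomy libraries were above all 3 controls for 5 members (Dnajb11, Sdf2l1, Creld2, Manf and Sec61b), where 10.1% of all genes were. They were all below for Syvn1, where 11.2% of all genes were. On the deposited scaling, which sets phlebotomy 1 and 4 lower, these counts were 3 above (Sdf2l1, Creld2 and Manf; 7.22% of all genes) and 4 below (Hyou1, Sel1l, Syvn1 and Ern1; 14.5%).

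Results without phlebotomy 2 differed. Sdf2l1 and Syvn1 were then both called by edgeR (4.74% of all genes were), 8 members lay above all controls (21.6% of all genes) and 6 below (22%). Without control 4, edgeR called Sdf2l1 (0.0344% of all genes). In phlebotomy 2 itself, 25 of 33 members (75.8%) were nearer to the control mean than to the mean of phlebotomy 1 and 4, where 61.8% of all genes were.

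**Figure D2:**
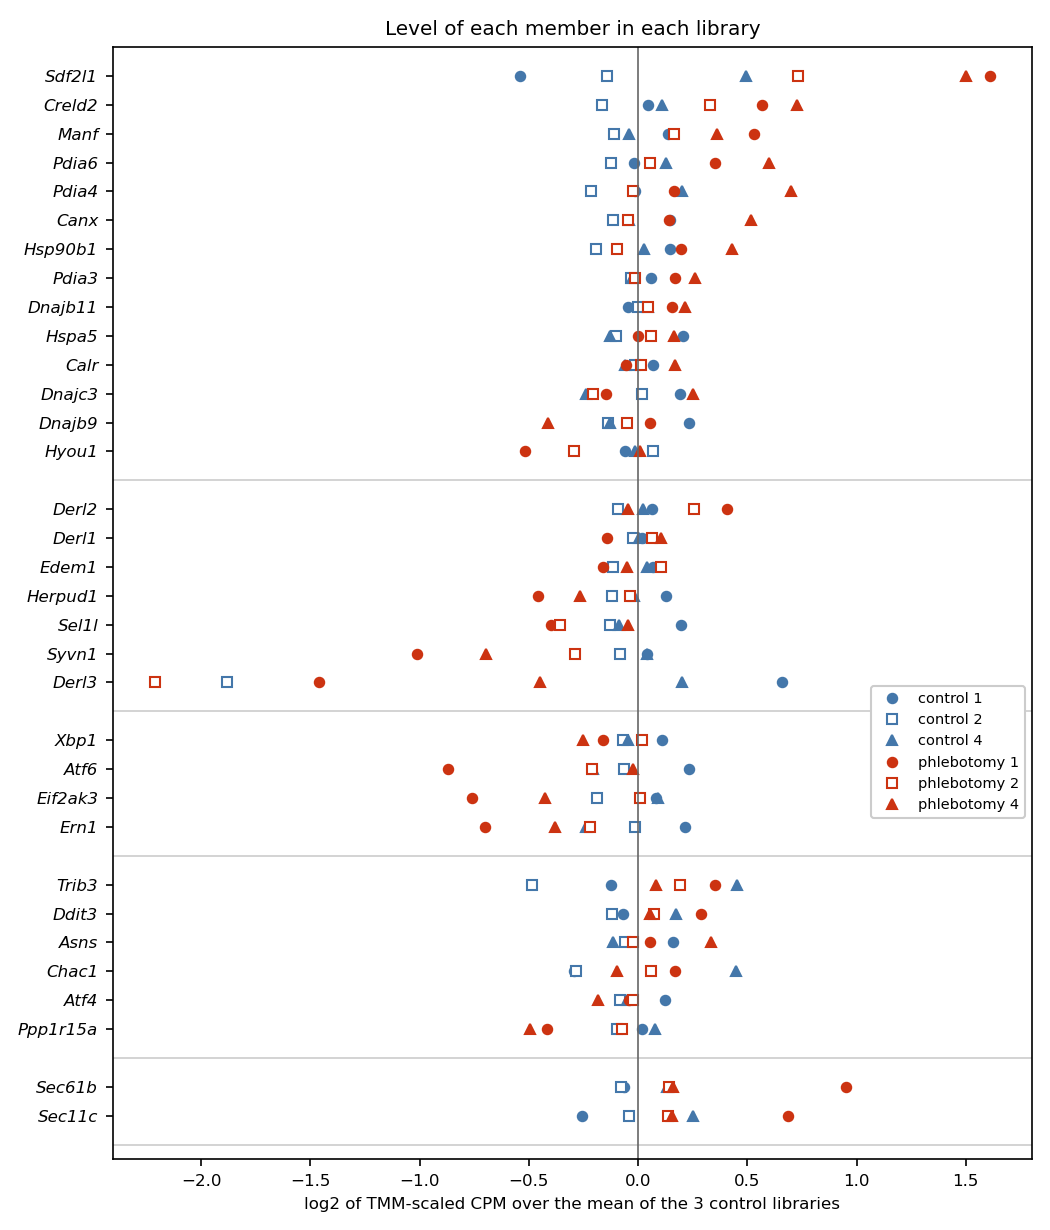
Each member's TMM-scaled CPM in each library as log2 over the mean of the 3 controls, grouped by arm (chaperones, ER degradation, sensors with Xbp1, ATF4 arm, entry). Blue marks control and red phlebotomy, with circles for library 1, open squares for 2 and triangles for 4; Sdf2l1, Creld2 and Manf have all red points to the right of the blue ones and Syvn1 has them to the left.

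Of the 14 chaperones and folding enzymes, 11 had a fold change above 0 and 3 below, with a median of 0.17, beside -0.0028 over all genes. This median was 0.064 without phlebotomy 4 and 0.10 without control 2, and on the deposited scaling it was 0.075 beside -0.077 over all genes. Sdf2l1 (chr16:17130138-17132383, minus strand), a partner of BiP, stood at 21.1, 27.8 and 43.3 CPM in control 1, 2 and 4, against 93.9, 51.01 and 86.9 CPM in phlebotomy 1, 2 and 4. The groups did not overlap, and phlebotomy 2 was the phlebotomy library nearest to the controls. The means were 30.7 ± 11.4 CPM for control against 77.3 ± 23.02 CPM for phlebotomy (SD, n = 3 each), a 2.51-fold difference with a log2 fold change of 1.33 ± 0.27 (SE; edgeR adjusted p = 0.139).

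Creld2 (chr15:88819646-88826683, plus strand), an ER-resident protein induced by ER stress, stood at 49.7, 43.01 and 51.9 CPM in control 1, 2 and 4, against 71.5, 60.5 and 79.8 CPM in phlebotomy 1, 2 and 4. Again every phlebotomy library was above every control. The means were 48.2 ± 4.65 CPM for control against 70.6 ± 9.65 CPM for phlebotomy (SD, n = 3 each), with a log2 fold change of 0.55 ± 0.17 (SE; edgeR adjusted p = 0.187). Manf (chr9:106838312-106891979, minus strand), a secreted and ER-held protective factor, stood at 133, 112 and 117 CPM in control 1, 2 and 4, against 174, 135 and 155 CPM in phlebotomy 1, 2 and 4. The gap between the groups was narrow, since phlebotomy 2 lay just above control 1, and the log2 fold change was 0.36 ± 0.17 (SE; edgeR adjusted p = 0.297).

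Among the disulfide isomerases, Pdia6 stood at 291, 270.3 and 322 CPM in control 1, 2 and 4, against 375, 306 and 446 CPM in phlebotomy 1, 2 and 4. Phlebotomy 2 fell within the control range and the other phlebotomy libraries above it, for a log2 fold change of 0.35 ± 0.18 (SE; edgeR adjusted p = 0.3501). Pdia4 stood at 124, 107 and 143 CPM in control 1, 2 and 4, against 139.7, 123 and 202 CPM in phlebotomy 1, 2 and 4, and phlebotomy 4 alone was far above the controls. Its log2 fold change was 0.31 ± 0.20 (SE; edgeR adjusted p = 0.443). Pdia3 ranged from 782 to 834 CPM over the controls, against 792 to 957 CPM over the phlebotomy libraries, a log2 fold change of 0.14.

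Hspa5 itself (chr2:34771970-34777547, plus strand) stood at 3476, 2809 and 2758 CPM in control 1, 2 and 4, against 3014, 3143 and 3376 CPM in phlebotomy 1, 2 and 4. Control 1 was the highest of the 6, the groups overlapped, and the log2 fold change was 0.076 ± 0.21 (SE; edgeR adjusted p = 0.878). The ER form of HSP90, Hsp90b1, ranged from 501 to 632 CPM over the controls, against 535 to 770.4 CPM over the phlebotomy libraries (0.19 on the log2 scale). The lectin chaperones Calr and Canx had log2 fold changes of 0.045 and 0.22, Canx with its highest library in phlebotomy 4 at 558 CPM.

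The DNAJ co-chaperones, which hand substrates to BiP, differed from each other. Dnajb11 ranged from 101 to 108 CPM over the controls, against 108 to 122 CPM over the phlebotomy libraries, a narrow separation with a log2 fold change of 0.14 that was 0.054 on the deposited scaling. Dnajb9 ranged from 394 to 510.1 CPM over the controls, against 326 to 450.4 CPM over the phlebotomy libraries (-0.12), and Dnajc3 from 216 to 291 CPM over the controls, against 221 to 303 CPM over the phlebotomy libraries (-0.018). Hyou1, the nucleotide exchange factor of BiP, was the chaperone with the lowest fold change, at 45.2 to 49.4 CPM over the controls, against 32.8 to 47.3 CPM over the phlebotomy libraries (-0.25), and phlebotomy 4 was within its control range. With the trend on length and GC content removed its log2 fold change was -0.039.

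**Figure D3:**
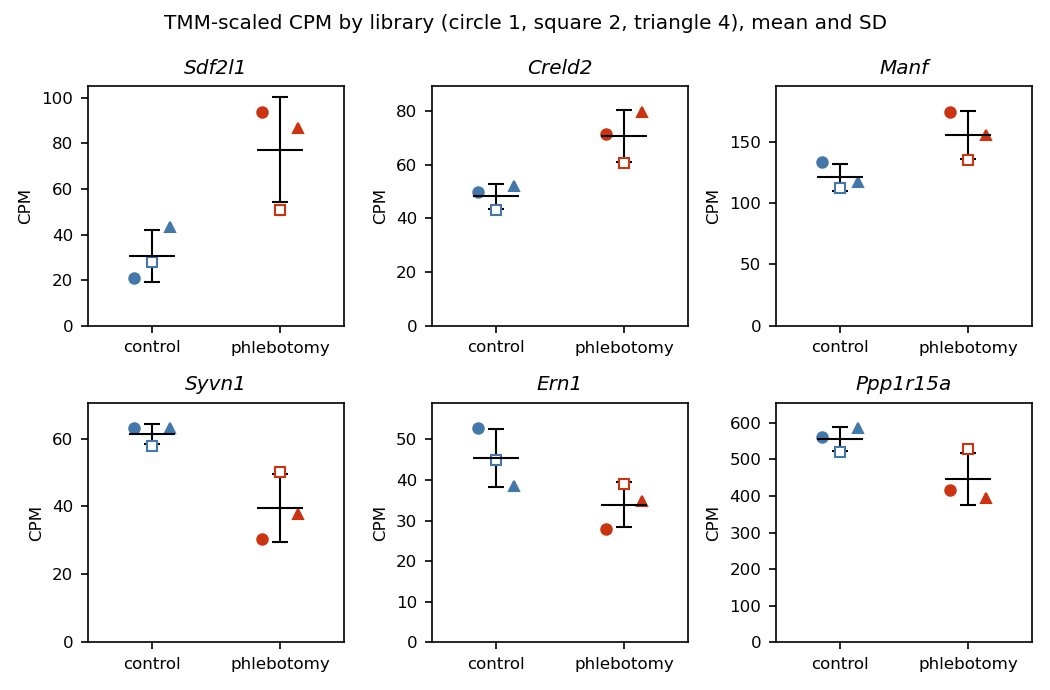
TMM-scaled CPM of Sdf2l1, Creld2, Manf, Syvn1, Ern1 and Ppp1r15a by library (circle 1, square 2, triangle 4), with horizontal bars for the mean and error bars for the SD of 3 libraries. The groups are apart in Sdf2l1, Creld2, Manf and Syvn1 and overlap in Ern1 and Ppp1r15a, where phlebotomy 2 lies among the controls.

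Of the 7 ER degradation genes, 2 had a fold change above 0 and 5 below, with a median of -0.24 that was -0.12 without phlebotomy 1. Syvn1 (chr19:6046576-6053712, plus strand), the ubiquitin ligase HRD1 that marks misfolded ER proteins, stood at 63.02, 57.9 and 63.04 CPM in control 1, 2 and 4, against 30.4, 50.2 and 37.9 CPM in phlebotomy 1, 2 and 4. Every phlebotomy library was below every control, and phlebotomy 2 was closest. The means were 61.3 ± 2.94 CPM for control against 39.5 ± 10.03 CPM for phlebotomy (SD, n = 3 each), with a log2 fold change of -0.64 ± 0.19 (SE; edgeR adjusted p = 0.181).

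Sel1l, the partner that stabilises HRD1, stood at 87.2, 69.5 and 71.5 CPM in control 1, 2 and 4, against 57.7, 59.4 and 73.7 CPM in phlebotomy 1, 2 and 4. Phlebotomy 4 was within the control range, and the log2 fold change was -0.26 ± 0.17 (SE; edgeR adjusted p = 0.467). Herpud1, a membrane organiser of the HRD1 complex, stood at 302, 254 and 273 CPM in control 1, 2 and 4, against 201, 269 and 229.6 CPM in phlebotomy 1, 2 and 4. Phlebotomy 2 fell among the controls while the others were below, for a log2 fold change of -0.24 ± 0.17 (SE; edgeR adjusted p = 0.493).

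The derlins form part of the channel through which substrates leave the ER. Derl2 stood at 44.1, 39.6 and 42.8 CPM in control 1, 2 and 4, against 55.9, 50.4 and 40.8 CPM in phlebotomy 1, 2 and 4, with phlebotomy 4 inside the control range and a log2 fold change of 0.22 ± 0.17 (SE; edgeR adjusted p = 0.543). Derl1 ranged from 137 to 140.2 CPM over the controls, against 126 to 149 CPM over the phlebotomy libraries (0.013). Derl3 had the lowest level, at 2.86, 0.492 and 2.08 CPM in control 1, 2 and 4, against 0.659, 0.391 and 1.33 CPM in phlebotomy 1, 2 and 4, and a log2 fold change of -1.13 ± 0.60 (SE; edgeR adjusted p = 0.3599). Control 2 was as low as the phlebotomy libraries and the other controls were above all of them. Edem1, a lectin that directs glycoproteins to degradation, ranged from 228 to 259.6 CPM over the controls, against 221 to 266 CPM over the phlebotomy libraries (-0.03).

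All 4 of the sensors with Xbp1 had a fold change below 0, with a median of -0.34, which ran from -0.50 without phlebotomy 2 to -0.13 without phlebotomy 1. Ern1, the sensor that splices Xbp1 mRNA, stood at 52.8, 44.97 and 38.6 CPM in control 1, 2 and 4, against 27.97, 38.96 and 34.95 CPM in phlebotomy 1, 2 and 4. Phlebotomy 2 was just above control 4, and the log2 fold change was -0.42 ± 0.19 (SE; edgeR adjusted p = 0.2897). Eif2ak3 (PERK) stood at 31.2, 25.9 and 31.4 CPM in control 1, 2 and 4, against 17.4, 29.6 and 21.9 CPM in phlebotomy 1, 2 and 4. Phlebotomy 1 and 4 were below the controls and phlebotomy 2 among them, for a log2 fold change of -0.36 ± 0.21 (SE; edgeR adjusted p = 0.4096).

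Atf6 stood at 196, 159.7 and 145 CPM in control 1, 2 and 4, against 91.5, 144 and 164 CPM in phlebotomy 1, 2 and 4. Phlebotomy 1 was far below the controls, phlebotomy 2 just below control 4 and phlebotomy 4 among them, and the log2 fold change was -0.32 ± 0.21 (SE; edgeR adjusted p = 0.453). Xbp1 stood at 517, 457 and 465 CPM in control 1, 2 and 4, against 429, 485 and 402 CPM in phlebotomy 1, 2 and 4. Its groups overlapped, with a log2 fold change of -0.13 ± 0.17 (SE; edgeR adjusted p = 0.729). Gene counts do not separate spliced from unspliced Xbp1, so the activity of IRE1 was not measured.

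The ATF4 arm had 4 of 6 members above 0 and 2 below, with a median of 0.087 that was -0.062 without control 2. It was 0.034 when control 1 was left out and 0.044 when phlebotomy 1 was. Atf4 itself, which is controlled mainly in translation, stood at 598, 519.5 and 531 CPM in control 1, 2 and 4, against 535, 542 and 484 CPM in phlebotomy 1, 2 and 4. All phlebotomy libraries but phlebotomy 4 were within the control range, with a log2 fold change of -0.08 ± 0.17 (SE; edgeR adjusted p = 0.841). Ddit3, the transcription factor CHOP, stood at 33.04, 31.9 and 39.04 CPM in control 1, 2 and 4, against 42.3, 36.4 and 36.03 CPM in phlebotomy 1, 2 and 4, also with overlapping groups and a log2 fold change of 0.14 ± 0.17 (SE; edgeR adjusted p = 0.702).

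Ppp1r15a (GADD34), which restores translation by directing a phosphatase to eIF2, had the lowest fold change of this arm, with 561, 519 and 585 CPM in control 1, 2 and 4, against 416, 528 and 394 CPM in phlebotomy 1, 2 and 4. Phlebotomy 1 and 4 were below all controls and phlebotomy 2 was among them. This gave a log2 fold change of -0.32 ± 0.18 (SE; edgeR adjusted p = 0.391). Trib3, a pseudokinase induced by CHOP, stood at 15.9, 12.4 and 23.7 CPM in control 1, 2 and 4, against 22.1, 19.8 and 18.3 CPM in phlebotomy 1, 2 and 4. Its log2 fold change of 0.21 ± 0.23 (SE; edgeR adjusted p = 0.661) was smaller than the spread of the controls. Asns, which makes asparagine, stood at 106, 91.4 and 87.9 CPM in control 1, 2 and 4, against 98.8, 93.6 and 119.9 CPM in phlebotomy 1, 2 and 4 (0.13 on the log2 scale). Chac1, which degrades glutathione, ranged from 8.48 to 14.2 CPM over the controls, against 9.73 to 11.7 CPM over the phlebotomy libraries (0.045).

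Both entry genes had a fold change above 0, with phlebotomy 1 the highest library. Sec61b, a subunit of the translocation channel, stood at 59.5, 58.96 and 68.2 CPM in control 1, 2 and 4, against 120.3, 68.6 and 69.5 CPM in phlebotomy 1, 2 and 4. The groups were apart by a narrow gap, and the log2 fold change was 0.47 ± 0.21 (SE; edgeR adjusted p = 0.2900). Sec11c, a catalytic subunit of signal peptidase, stood at 93.7, 109 and 133 CPM in control 1, 2 and 4, against 181, 123 and 125 CPM in phlebotomy 1, 2 and 4. Control 4 was above phlebotomy 2 and 4, and the log2 fold change was 0.35 ± 0.19 (SE; edgeR adjusted p = 0.382). The median of the pair was 0.41, and it was 0.17 without phlebotomy 1.

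Other genes of the same pathways, and cytosolic heat shock and immediate early genes beside them, were read from the same fit. They were listed by known role, but with earlier results of these data known, so their directions are no independent evidence. Of the 164 tested (of 166 named), edgeR called 0. At an unadjusted p under 0.05, 7.01% of all genes were higher and 9.42% lower, and these shares apply to each list below. Of 36 other ER folding factors, 15 had a fold change above 0 and 21 below, with a median of -0.068. At that p, 0 were higher and 2 lower. The latter are Fkbp9, at 164 ± 35.2 CPM for control against 112 ± 18.7 CPM for phlebotomy (SD, n = 3 each), and Fkbp10, at 127 ± 25.7 CPM for control against 81.2 ± 34.96 CPM for phlebotomy (SD, n = 3 each). Both are prolyl isomerases, and Fkbp10 is known to act on collagen. Serpinh1, the collagen chaperone HSP47, had a log2 fold change of -0.50 ± 0.23 (SE; edgeR adjusted p = 0.307). The osteocyte and bone matrix markers also lay lower, and a relation between these values was not tested.

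Of 23 other ER degradation factors, 6 were above 0 and 17 below (median -0.18), with 0 higher and 3 lower at an unadjusted p under 0.05. Among these were Os9, a lectin of the HRD1 complex (-0.35), and Herpud2 (-0.36). Of 32 other ATF4 and amino acid response genes, 9 were above 0 and 23 below (median -0.14), with 1 higher and 5 lower at that p. Phgdh, the first enzyme of serine synthesis, had a log2 fold change of 0.72 ± 0.23 (SE; edgeR adjusted p = 0.2001), and the amino acid transporters Slc7a5 and Slc7a1 had -0.50 and -0.49.

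Of 18 other stress sensor and eIF2 genes, 4 were above 0 and 14 below (median -0.19), with 1 higher and 3 lower at that p. Creb3l1 (OASIS), an ER-membrane transcription factor known to drive collagen genes in osteoblasts, stood at 136, 109 and 95.2 CPM in control 1, 2 and 4, against 39.2, 81.3 and 65.2 CPM in phlebotomy 1, 2 and 4. Every phlebotomy library was below every control, where 11.2% of all genes were. The log2 fold change was -0.87 ± 0.23 (SE; edgeR adjusted p = 0.1600), and DESeq2 called it among 284 genes (1.51%). Eif2ak2 (PKR), a kinase induced by interferon, had a log2 fold change of 0.55, and Mbtps1, a protease that activates ATF6, -0.44.

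Another list held 29 genes of the translocon, signal peptidase, glycosylation and vesicle transport. Of these, 15 were above 0 and 14 below (median 0.0017), with 1 higher and 2 lower at that p. Spcs2, of signal peptidase, had 0.41, and the COPII coat genes Sec31a and Sec24d, which carry cargo out of the ER, had -0.52 and -0.51. Of 14 cytosolic heat shock genes, 7 were above 0 and 7 below, with 0 higher and 1 lower at that p (Bag3, -0.65). Cryab had -0.50 and Chordc1 0.34. All 12 immediate early genes, which respond to handling and to stimuli, were below 0 (median -0.59), with 10 lower at that p, among them Egr1 (-1.04), Fosb (-1.01) and Egr2 (-0.94).

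By library, the arms differed. The centred mean log2 level of the chaperones was -0.066, -0.20 and -0.084 in control 1, 2 and 4, against 0.12, -0.059 and 0.28 in phlebotomy 1, 2 and 4. For the sensors with Xbp1 it was 0.33, 0.085 and 0.069 in the controls, against -0.45, 0.067 and -0.10 after phlebotomy. Phlebotomy 4 was highest for the chaperones and phlebotomy 1 lowest for the sensors. Markers of other cells differed between these libraries too. The 10 osteoblast and bone matrix markers were all below 0 (median -0.62), with a centred level of 0.70, 0.25 and 0.094 in the controls, against -0.81, 0.16 and -0.40 after phlebotomy. Plasma cells are rich in this machinery, and 9 of 10 of their markers were tested (Tnfrsf17 did not pass the filter). Their summed level was 2124, 542 and 719 CPM in control 1, 2 and 4. It was 450, 1296 and 448 CPM in phlebotomy 1, 2 and 4. In control 1, Ighm and Jchain held 1530 and 407 CPM of the sum, and in phlebotomy 2 they held 983 and 163 CPM. Of the plasma cell markers, 2 had a fold change above 0 and 7 below. The 10 cell cycle markers were all above 0 (median 0.52), summing to 725 to 1132 CPM in control and 1133 to 1420 CPM in phlebotomy. Median fold changes were -0.35 for B cell, 0.28 for neutrophil, 0.27 for monocyte and macrophage, 0.18 for erythroid and -0.21 for endothelial markers. Directions were mixed within these lists. Above and below 0 were 1 and 7 B cell, 7 and 3 neutrophil, 6 and 2 monocyte and macrophage, 7 and 3 erythroid and 1 and 5 endothelial markers. Summed neutrophil levels were 19104 to 45814 CPM in control and 26396 to 41903 CPM in phlebotomy. Summed erythroid levels were 12798 to 28189 CPM in control and 19480 to 29045 CPM in phlebotomy. Both overlapped between the groups, and both were of the size of the osteocyte sums, so marrow cells gave a large part of the RNA. Skeletal muscle markers (4 of 6 tested) summed to 5.13 to 10.8 CPM. The part of these cells in the members' levels was not tested.

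**Figure D4:**
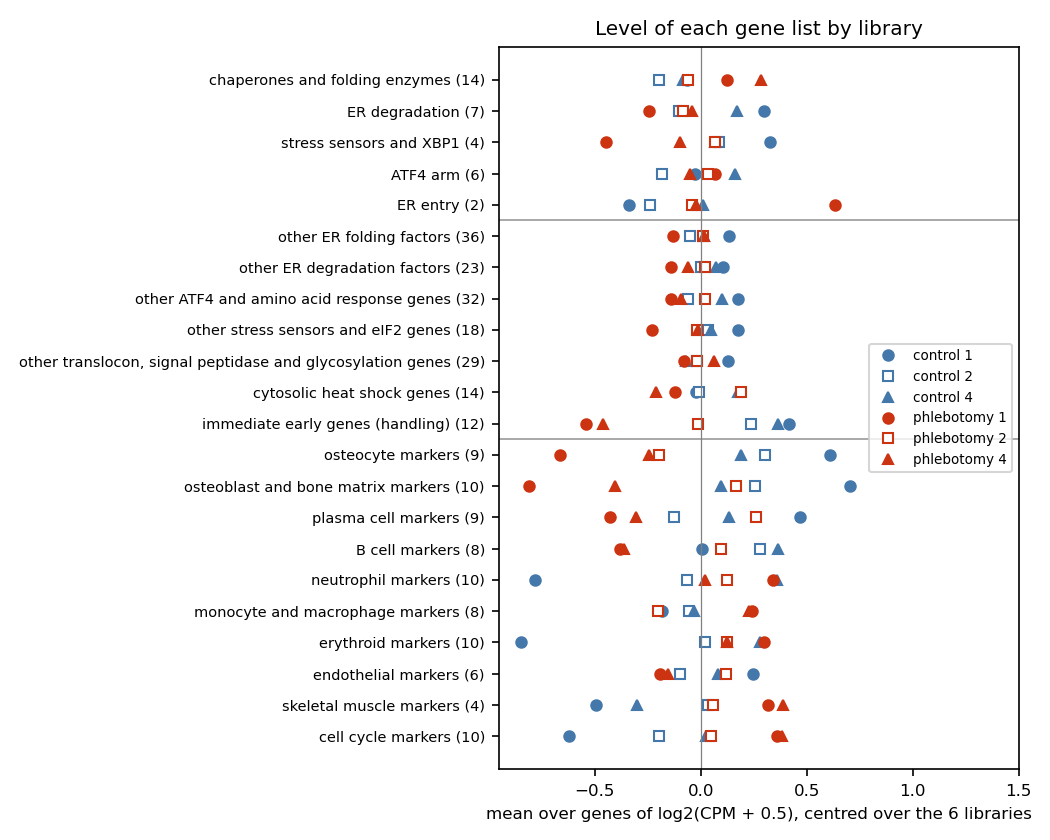
Mean over each list's tested genes of log2(CPM + 0.5) in each library, centred over the 6 libraries. Lists are the members' arms (top), other genes of the pathways with heat shock and immediate early genes (middle) and cell type markers (bottom). Blue is control and red phlebotomy (circle 1, open square 2, triangle 4); the sensors run from -0.45 in phlebotomy 1 to 0.33 in control 1, and the bone matrix markers from -0.81 to 0.70 in the same libraries.

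Fold change also varied with exon length, taken as all annotated exons of a gene merged, which can exceed the length of any single transcript. Over 18822 genes with an annotated exon length, fold change and length had a Spearman rho of -0.23, and over the 33 members -0.36, as descriptions of points that share libraries. Genes under 2000 bases of exon had a median fold change of 0.17 and those of 6000 or more -0.12, and the members in these ranges had 0.31 (6 genes) and -0.25 (8 genes). The arms differ in length, with a median exon length of 3380 bases for chaperones, 4859 for ER degradation and 7099.5 for the sensors with Xbp1. With a trend on length and GC content removed, the medians were 0.10, -0.14 and -0.23 in that order. The log2 fold change of Syvn1 was then -0.39, against -0.64 before.

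**Figure D5:**
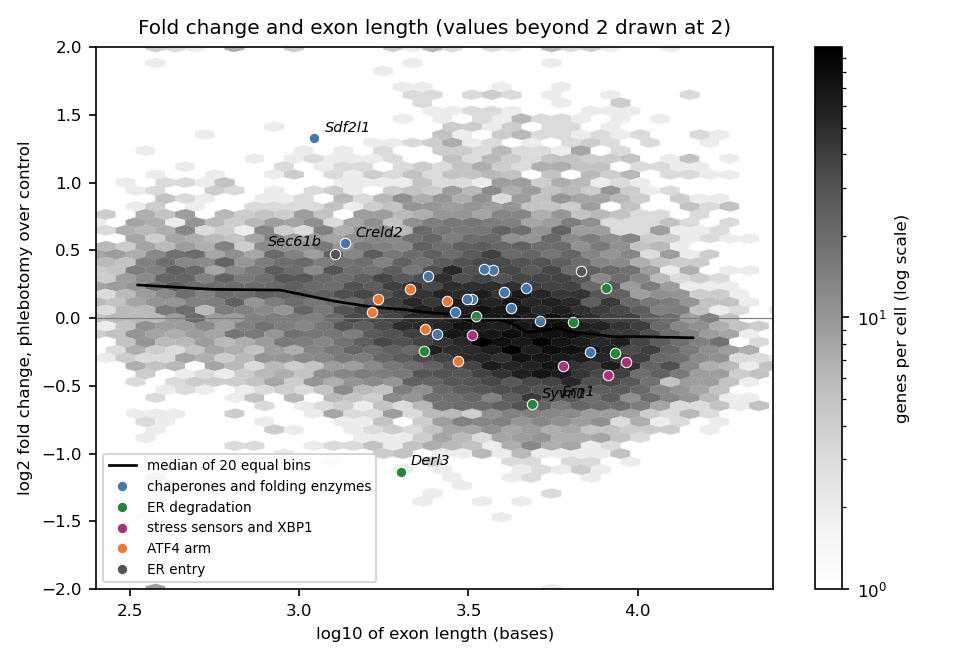
log2 fold change of phlebotomy over control against log10 of exon length in bases; grey cells count all genes (log scale), the line is the median in 20 equal bins, and coloured points are the members by arm. Grey values beyond 2 are drawn at 2; the line falls from left to right, Sdf2l1 lies above it at 1.33 and Syvn1 below it at -0.64.

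Reads were made with a kit that does not mark strand, so reads from overlapping genes cannot be told apart. In GENCODE M21, 11 of 33 members share exon bases with another gene. The largest shares were 10.3% of Hsp90b1 with 1810014B01Rik, 8.05% of Eif2ak3 with Gm43292 and 6.13% of Ddit3 with a second entry of the same name. Ddit3 also shares 3.97% with Mars, and Manf, whose groups lay close, shares 4.71% with 4930524O07Rik and 4.14% with Dcaf1. How many reads these bases hold was not measured, so the values of these members are uncertain. Of the members called in any setting, Sdf2l1 shares none and Syvn1 shares 1.87% with Mrpl49. Calr has a processed pseudogene (Calr-ps) that could take some of its reads.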

How the data were processed

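Femur libraries (3 control, 3 phlebotomy) were sequenced as Nextera XT libraries, 126 bp paired-end, per the labels' protocols. Builds GRCm38.p3 and mm10 and the tools limma, edgeR, DESeq2 and STAR (2.5.2a and 2.7.3a) are listed in the submitters' processing notes, without the role of each. Which program counted reads, and whether it used strand, is not given in the sources used here. The authors deposited raw counts per gene (55440 rows), a filtered copy (28533 rows) and a signal table of CPM scaled by TMM, per the file's name. The 19 rows naming no mouse gene (0.00278% to 0.0284% of counts) were left out before library sizes were taken.

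From the raw counts, genes were filtered with filterByExpr (minimum count 10), scaled by TMM and fitted in edgeR 4.0.16 (R 4.3.3) by quasi-likelihood, robust and with no covariates, with Benjamini-Hochberg adjustment over all 18838 genes at 0.05. Levels use this scaling, which differs from the deposited one by a median ratio of 0.969 to 1.07 per library. Alternatives used DESeq2 1.42.0, limma 3.58.1, other scalings and filters, a replicate block and each library left out. A trend on length and GC content, protein-coding genes only and the deposited scaling for group separation were added after seeing the data. Exon length and coordinates came from GENCODE M21 (GRCm38), with 99.9% of tested genes found, and promoters from RefSeq. Figures used matplotlib 3.10.9 in Python 3.11.15.

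The members and gene lists were chosen with earlier results of these data known. Named with values per library were up to 5 members per arm by smallest unadjusted p, plus Hspa5, Xbp1, Atf4 and Ddit3; of each other list, up to 3 genes by the same measure. One gene that this rule names is not reported here. No pair of libraries within a group agreed within sampling noise. Intervals were not computed for levels, whose error is the SD of 3 libraries.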

Additional observations from a re-analysis of the deposited data

Results flagged for a closer look

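In phlebotomy 2, rows of the count table that name no mouse gene held 0.0284% of counts (4288 counts), against 0.00337% to 0.00361% in the controls and 0.00278% and 0.00297% in the other phlebotomy libraries. These rows lie outside every comparison above. Phlebotomy 2 is also the library nearest to the controls for most members. The relation between these values was not tested.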

How the results depend on the processing

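Over all genes, edgeR called 3; the count was 577 with no low-count filter, 284 with DESeq2 (adjusted p missing for 6584 genes), 0 with limma-voom (2987 at an unadjusted p under 0.05) and 1 over protein-coding genes only. With single libraries left out it ran from 0 (without phlebotomy 1) to 963 (without phlebotomy 2), with 7 without control 4 and 14 without control 2. Of the members, 0 were called, 1 with no low-count filter and 1 with DESeq2 (Sdf2l1 in both), and 0 to 2 with single libraries left out. The log2 fold change of Sdf2l1 ran from 1.10 to 1.62 over 18 settings (adjusted p 2.06e-06 to 0.613, by edgeR, DESeq2 or limma) and that of Syvn1 from -0.88 to -0.39 (0.0297 to 0.626). Other stress sensor and eIF2 genes had 1 call (Creb3l1) with no low-count filter and with DESeq2, cytosolic heat shock genes likewise 1 (Bag3), and immediate early genes 6 and 3; with single libraries left out these ran from 0 to 1, 0 to 1 and 0 to 6, other ER folding factors from 0 to 2 (Fkbp10 and Serpinh1 without phlebotomy 2) and other ATF4 genes from 0 to 1 (Stc2). With single libraries left out, the median of the sensors with Xbp1 ran from -0.50 to -0.13 and that of the ATF4 arm from -0.062 to 0.13; the latter was 0.17 with upper-quartile scaling, which put the median of all genes at 0.082. Members with groups apart numbered 5 above and 1 below, 3 and 4 on the deposited scaling, and 8 and 6 without phlebotomy 2. Fewer samples or another set of genes are part of these settings; otherwise the cause was not tested. Of 33 members, 10 had a change of sign in at least 1 of 18 settings (Atf4, Calr, Chac1, Ddit3, Derl1, Dnajb9, Dnajc3, Edem1, Hspa5 and Trib3); the sign of Atf4 differed with upper-quartile scaling alone. With the replicate block edgeR called 3 genes and 0 members. Libraries with the same number did not deviate together (correlations -0.11, -0.11 and -0.062), and no library correlated best with its own number. Each deviation was taken from a mean of 3 libraries, so these values cannot decide whether the numbers pair the samples. The labels do not state it.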
